A study of Rattus norvegicus with 79 samples.

Results

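The comparison described here set 24-month-old rats whose arrays carry the title A HID B against 3-month-old rats titled Y HID, all of them trained in the water maze with a hidden platform. It was drawn from the sample titles alone and holds 22 of the 79 arrays of the series, 16 from B rats and 6 from young rats, with 1 array for each animal. All were male Fischer 344 rats (the labels spell the strain Fisher-344) housed in pairs. They were killed 24 hours after their last trial under pentobarbital, and the main cell layer of hippocampal area CA1 was punched from brain slices kept in RNAlater. The RNA of each punch went through 2 rounds of amplification before it was labelled with biotin. The labels explain that aged rats trained with the hidden platform could be impaired (I) or unimpaired (U) learners, but not what the letter B stands for, and the aged samples counted in the design text equal the aged arrays without those of B. The other groups used below were yoked rats, 8 aged 24 months and 6 aged 3 months, which swam with no platform. Hidden platform rats titled U (13 arrays) and I (10 arrays) were aged 24 months.

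CA1 pyramidal neurons carry the main output of the hippocampus, and the hidden platform task, in which a rat learns the place of a submerged platform from distant cues, depends on the hippocampus. Release of transmitter at their synapses relies on vesicles that fuse with the membrane and are retrieved by endocytosis, while receptors, scaffolds and kinases on the postsynaptic side set how strongly a synapse responds. Ageing in the rodent hippocampus is known for rises in glial, complement and lysosomal transcripts and for altered calcium handling in CA1 neurons. A punch of the cell layer also takes in interneurons, glia and vessels. In such bulk tissue, fewer cells of a type and less RNA per cell cannot be told apart.

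Each array gave 8799 probe set signals as deposited, with nearly equal trimmed means on all arrays, and 5244 probe sets above a low-signal filter were tested. Transcripts of CA1 and other pyramidal neurons were abundant in all 22 arrays. Hippocalcin (Hpca), a neuronal calcium sensor, ranged from 8915 to 17286 in B, with a median of 11355, against 5181 to 16343 in the young arrays, with a median of 9936, in arbitrary signal units, and neurogranin (Nrgn), a postsynaptic calmodulin-binding protein, lay between 9606 and 26881. The array of young animal 39 stood apart from the others. Its median Spearman correlation with the other arrays of the series was 0.661, against 0.917 to 0.933 in the other 5 young arrays and 0.898 to 0.936 in B, and its median signal was 275.1 against 105.0 to 169.8 in the other 5 young arrays. It also carried transcripts of the choroid plexus, the tissue that makes cerebrospinal fluid: the summed signal of 8 such genes was 50089 in that array, at most 3685 in the other 5 young arrays and 2079 to 11357 in B, and transthyretin (Ttr), the leading gene of the 8, alone reached 42281 there. None of the 8 genes was listed at 0 on any of the 22 arrays. The results that rest on that array are therefore also given without it. The bias of control genes toward their 3′ end (the log2 of signal at the 3′ over the 5′ end), a measure of how intact the labelled RNA was, averaged 2.28 ± 0.21 (SD, n = 16) in B and 2.47 ± 0.14 (SD, n = 6) in the young arrays (exact permutation test, two-sided, p = 0.0394, adjusted p = 0.197 over 5 quality measures).

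With limma and Benjamini-Hochberg adjustment over all probe sets tested, 53 of 5244 probe sets (1.01%) passed an adjusted p of 0.05 between B and young hidden platform rats. Of these, 42 (0.801%) were higher in B, written below as rises, and 11 (0.21%) were lower, written as falls. Counted at 1 probe set for each gene, 32 of 3233 genes (0.99%) passed, 26 upward and 6 downward. The genes that rose included Syp, Synj1 and Dnm1 of the synaptic vesicle list, the adhesion receptor gene Nrxn3 and the kinase genes Prkce, Ptk2b and Pdpk1. The called differences had a median size of 0.99 on the log2 scale. Rises were concentrated among bright probe sets: 31 of the 42 lay in the brightest quartile of mean signal and none in the dimmest, whereas the 11 falls were spread as 2, 4, 2 and 3 from the dimmest to the brightest quartile. The median difference of all probe sets followed the same order, from -0.27 in the dimmest to 0.13 in the brightest quartile, and from -0.08 to 0.01 without young array 39. Groups overlapped for every called probe set, and 1 of all 5244 (0.0191%) had groups that did not overlap.

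The number of probe sets past the threshold rested on single arrays. The direction of the 53 was kept whichever array was left out, but these arrays also chose the 53, so the kept direction is a description. Without young array 39, 25 probe sets passed (0.477%), 19 upward (0.362%) and 6 downward (0.114%), with 17 of them among the 53, and all 53 kept their direction with a median size of 0.85. In 21 of the 42 that rose, array 39 was the lowest of the young arrays, and in 6 of the 11 that fell it was the highest. Leaving out the other arrays in turn gave between 1 and 380 called probe sets: 1 without young animal 2, 19 without young animal 3, 30 without young animal 38, 86 without young animal 40 and 380 without young animal 37, of which 187 rose and 193 fell. Among the B arrays the count went from 26 without animal 12 to 151 without animal 10, with 28 without animal 88, 33 without animal 13 or 90 and 35 without animal 11 or 41. When the 3′ bias of each array entered the fit as a covariate, 1 probe set passed. The spread within B (median SD 0.42 on the log2 scale) was smaller than that within the young arrays (0.60), which came to 0.43 without array 39.

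**Figure D1:**
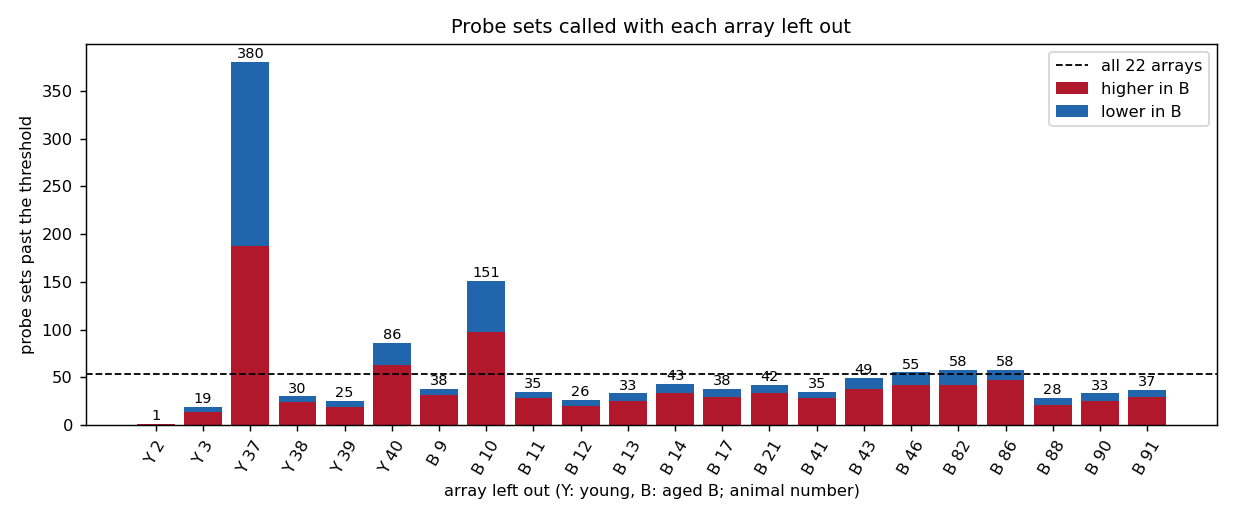
Number of probe sets past an adjusted p of 0.05 (vertical axis) when each of the 22 arrays was left out in turn (horizontal axis, Y for young and B for aged, with the animal number). Red bars count probe sets higher in B, blue bars those lower, and the dashed line marks the 53 called with all arrays; the count ran from 1 without young animal 2 to 380 without young animal 37.

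Among the genes of synaptic vesicles, 3 of 36 tested rose, where 26 of all 3233 genes did (0.804%). Without array 39, 2 of the 36 rose, where 9 of all genes did (0.278%), and in the yoked rats none of the 36 passed. The 36 genes were bright, with a median mean signal of 1045 beside 434 over all genes, and 31 of the 42 risen probe sets lay in the brightest quartile. The part of signal level in this count was not tested. Synj1 codes for synaptojanin 1, the phosphoinositide phosphatase that uncoats endocytic vesicles. Its signal ran from 3339.6 to 8068 in B, with a median of 6314, against 1194 to 5008 in the young arrays, with a median of 2944. All but 2 of the 16 B arrays, those of animals 10 and 82 (4792.9 and 3339.6), lay above the highest young array, which was that of animal 2. The lowest young value was that of animal 39. The difference was log2 1.07 ± 0.20 (SE), adjusted p = 0.0176, 2.10-fold higher in B, and 0.82 without array 39 (adjusted p = 0.0371). Synj1 was the 1 gene called in all 22 fits that left out an array.

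Syp, which codes for the vesicle membrane protein synaptophysin, ran from 1499 to 4733 in B, with a median of 3053, against 933 to 2210.1 in the young arrays, with a median of 1328. Again 14 of the 16 B arrays exceeded every young array, and the remaining B arrays overlapped the 2 highest young values, those of animals 37 and 40. The difference came to log2 1.02 ± 0.19 (SE), adjusted p = 0.0176, and to 0.93 without array 39 (adjusted p = 0.0371). Dnm1, the GTPase dynamin 1 that pinches endocytic vesicles from the membrane, had signals from 6706 to 11222 in B, with a median of 8390.1, against 2940.1 to 10537 in the young arrays, with a median of 5109. Here the groups overlapped widely, and the young array of animal 37 at 10537 stood above 14 of the B arrays. Its difference was log2 0.72 ± 0.18 (SE), adjusted p = 0.0392, and 0.55 without array 39, where it did not pass (adjusted p = 0.0928).

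Of the other 33 vesicle and fusion genes tested none passed, and the median over the 36 was 0.21 (0.13 without array 39) beside -0.05 over all genes (-0.04). Sv2a, a vesicle glycoprotein, was the nearest to the threshold with a log2 difference of 0.67 (adjusted p = 0.0616). The median stayed above 0 after quantile normalization (0.18) and median centring (0.32). Probe sets that do not stand for their gene under the rule used here added 2 parts of the endocytic coat, Ap2b1 of the AP-2 adaptor at 0.72 (adjusted p = 0.0323) and clathrin light chain b (Cltb) at 1.28 (adjusted p = 0.0176). Without array 39 neither passed, at 0.59 for Ap2b1 (adjusted p = 0.0673) and 1.09 for Cltb (adjusted p = 0.0539). The brighter probe sets of these genes gave 0.25 for Cltb (adjusted p = 0.486) and -0.08 for Ap2b1. Dimmer ones gave -0.61 for Cltb (adjusted p = 0.281) and 0.20 for Ap2b1 (adjusted p = 0.606), so the measured change depended on the probe set.

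The promoters of Synj1, Syp and Dnm1, which were each called higher in B, and of Crhbp, which was called lower, are shown for reference. The windows are the 250 bases before and 50 after the annotated start in RefSeq (GRCr8, 5′ to 3′ on the gene's strand, in each case the minus strand). They lie at chr11:43755477-43755776, chrX:17536400-17536699, chr3:36046240-36046539 and chr2:28439397-28439696. Capitals mark matches, on either strand, to GGGCGG, the core that the factor Sp1 binds, or to TGACG, which forms the core of a cAMP response element. They also mark the CCAAT box and the TATA box motif, which was searched as TATAAA. The motifs do not overlap in these windows.
Synj1: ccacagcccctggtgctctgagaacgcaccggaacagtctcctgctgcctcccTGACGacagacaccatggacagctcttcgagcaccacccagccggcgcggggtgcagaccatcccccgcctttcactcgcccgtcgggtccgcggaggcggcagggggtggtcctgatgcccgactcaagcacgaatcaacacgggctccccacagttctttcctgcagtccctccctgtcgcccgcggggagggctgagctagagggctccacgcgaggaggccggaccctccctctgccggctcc
Syp: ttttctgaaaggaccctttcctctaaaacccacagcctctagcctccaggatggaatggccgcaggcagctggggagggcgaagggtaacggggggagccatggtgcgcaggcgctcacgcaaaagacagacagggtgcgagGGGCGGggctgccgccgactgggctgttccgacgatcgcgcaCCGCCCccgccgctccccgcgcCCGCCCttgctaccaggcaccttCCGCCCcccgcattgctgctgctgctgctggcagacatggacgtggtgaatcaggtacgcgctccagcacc
Dnm1: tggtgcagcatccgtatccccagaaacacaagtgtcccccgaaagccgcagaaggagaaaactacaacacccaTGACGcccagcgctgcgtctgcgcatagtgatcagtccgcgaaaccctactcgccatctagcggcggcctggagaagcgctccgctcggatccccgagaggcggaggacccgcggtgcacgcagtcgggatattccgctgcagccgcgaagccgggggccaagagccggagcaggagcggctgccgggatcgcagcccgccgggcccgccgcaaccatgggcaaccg
Crhbp: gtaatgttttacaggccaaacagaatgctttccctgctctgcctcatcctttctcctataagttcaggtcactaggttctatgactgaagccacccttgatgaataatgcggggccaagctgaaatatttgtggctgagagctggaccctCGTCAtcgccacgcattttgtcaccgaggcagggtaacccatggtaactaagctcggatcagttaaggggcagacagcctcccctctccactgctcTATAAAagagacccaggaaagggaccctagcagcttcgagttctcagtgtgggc
The Syp window held 4 matches to the Sp1 core and no other motif. Those of Synj1 and Dnm1 each held 1 match to the cAMP element core, and that of Crhbp held 1 such match and 1 TATA box motif. The Sp1 core was present in 17 of the 22 genes that rose and had a promoter entry (77.3%), in 62.2% of 2653 tested genes and in 34.9% of all 27457 promoters. The cAMP element core was present in 6 of the 22 (27.3%), in 31.4% of tested genes and in 21.96% of all promoters. A match describes these letters and is not evidence of binding.

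**Figure D2:**
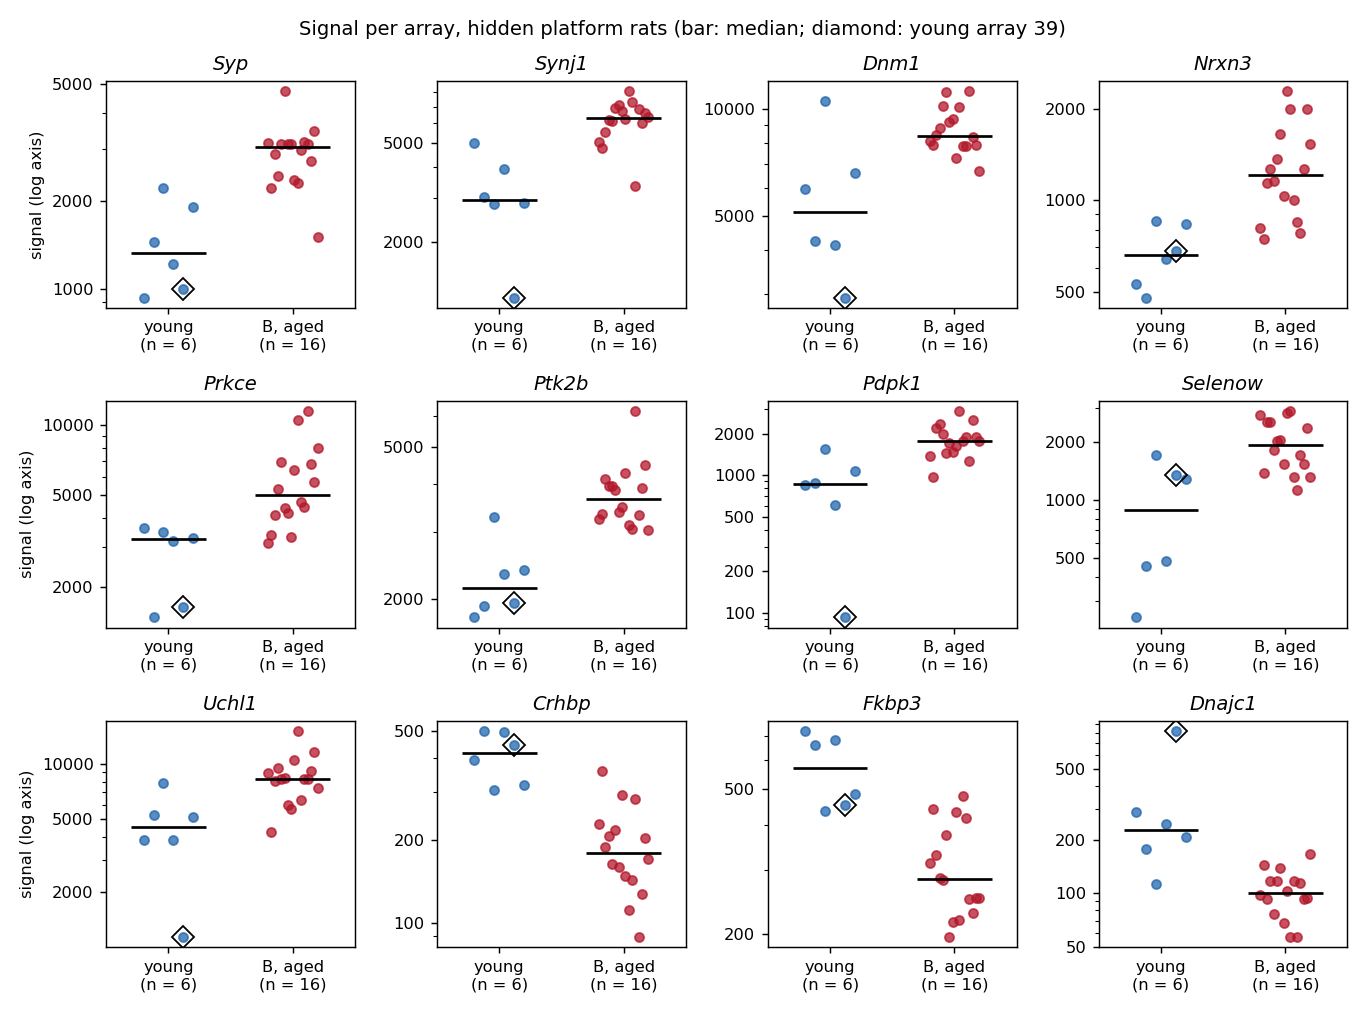
Signal of 12 called genes on each array (points, logarithmic vertical axes in signal units) for the 6 young and 16 B rats, with a bar at each group's median and a diamond around the young array of animal 39. For Synj1 and Syp 14 of the 16 B arrays lie above all young arrays, for Crhbp 15 lie below them, and for Dnm1 1 young array lies among the highest B arrays.

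Among single kinase genes, Pdpk1, which codes for the kinase that activates Akt and related kinases, had signals from 975 to 2907 in B, with a median of 1770.3, against 93.1 to 1538 in the young arrays, with a median of 862. The lowest young value was that of animal 39, far under the next lowest at 609.5. The difference was log2 1.41 ± 0.32 (SE), adjusted p = 0.0308, and it fell to 0.89 without array 39, where it still passed (adjusted p = 0.0417). Prkce, the epsilon isoform of protein kinase C, had signals from 3120.4 to 11518 in B, with a median of 5008, against 1485 to 3602 in the young arrays, with a median of 3219. Although 13 of the 16 B arrays exceeded all young arrays, 4 young arrays lay within the range of B. Its difference of log2 1.04 ± 0.25 (SE), adjusted p = 0.038, became 0.90 without array 39 (adjusted p = 0.0868). A dimmer Prkce probe set also passed, at 1.18 (adjusted p = 0.0176) and 1.31 without array 39 (adjusted p = 0.0371), while its other probe sets gave 0.33 and 0.13 and did not pass.

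Ptk2b, the calcium-activated tyrosine kinase Pyk2, ran from 3034 to 6186 in B, with a median of 3655, against 1791 to 3281 in the young arrays, with a median of 2134. The young array of animal 37 was the 1 young array inside the range of B, and 12 of the 16 B arrays lay above it. The rise of log2 0.74 ± 0.15 (SE), adjusted p = 0.0176, was nearly as large without array 39 (0.70, adjusted p = 0.0371). Srpk2, a kinase of splicing factors, rose by 1.00 ± 0.22 (SE, adjusted p = 0.0232) and stood at 0.78 without array 39 (adjusted p = 0.0673). Of the 9 genes tested on the list of protein kinase C isoforms and their substrates and partners Prkce was the 1 that passed, with a list median of -0.07. None of the 9 genes on the calcium/calmodulin-dependent kinase list, which also holds calmodulin (Calm2) and the kinase inhibitor Camk2n1, passed, 5 of them being higher and 4 lower in B with a median of 0.42. Among the kinases, Camk2g was at 0.81 (adjusted p = 0.0684) and Camk2b at 0.53 (adjusted p = 0.165).

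At the membrane and in the postsynaptic cell, Nrxn3, which codes for the adhesion receptor neurexin 3 of presynaptic terminals, had signals from 743 to 2279 in B, with a median of 1209, against 478 to 855 in the young arrays, with a median of 660.4. Of the B arrays 12 exceeded every young array, and array 39 lay in the middle of the young values at 682. The difference was log2 0.89 ± 0.21 (SE), adjusted p = 0.038, and 0.90 without array 39 (adjusted p = 0.0673). In the list of postsynaptic scaffold and spine genes that holds Nrxn3, 1 of 28 rose, 14 were higher and 14 lower, and the median was 0.01. Dlgap4, a scaffold-associated protein, was at 1.00 (adjusted p = 0.0606), and a dimmer probe set of it gave 0.51 (adjusted p = 0.302). Shank1, a master scaffold of excitatory synapses, was at -0.65 (adjusted p = 0.0802).

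All 7 genes tested on the list of AMPA and kainate receptors, which also holds the delta receptor gene Grid1, were higher in B, with a median of 0.44 (0.56 without array 39), but none passed, and 1 of the 7 was lower after quantile normalization. Gria1, the GluA1 subunit, ran from 4016 to 8395 in B, with a median of 5499.9, against 1020.4 to 8535 in the young arrays, with a median of 2700.2, and its difference was log2 0.95 ± 0.30 (SE), adjusted p = 0.0902. The highest Gria1 value of all 22 arrays was a young one, and the young arrays spanned more than those of B. Dimmer Gria1 probe sets gave 0.49 (adjusted p = 0.506) and 0.34 (adjusted p = 0.466). The NMDA receptor list, which also holds the NMDA receptor-associated Grina, had 2 genes higher and 5 lower with a median of -0.22 (-0.00 without array 39). The list of GABA and glycine receptors, which holds GABA-A, GABA-B (Gabbr1, Gabbr2) and glycine receptor genes and gephyrin (Gphn), had 4 higher and 9 lower with a median of -0.22 (-0.11). None of either list passed at 1 probe set for each gene. Of 29 monoamine and acetylcholine receptor genes, 27 were lower in B with a median of -0.39, which was -0.19 without array 39, -0.27 after quantile normalization and -0.28 after median centring. None of them passed, Htr3a, the ion channel type of serotonin receptor, being the nearest at -0.66 (adjusted p = 0.0675). Array 39 was the highest young array for Htr3a at 1065. The 29 receptor genes were dim, with a median mean signal of 227 beside 434 over all genes. Probe sets in the 2 dimmest quartiles had median differences of -0.27 and -0.17 (-0.08 and -0.09 without array 39). Of all 3233 genes 1802 were lower in B. The part of signal level in the receptor values was not tested.

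Of calcium sensor and buffer genes 1 of 24 rose, Atp2b3, a plasma membrane pump that expels calcium. Its signals ran from 1259.6 to 3972 in B, with a median of 2081, against 1117 to 1507 in the young arrays, with a median of 1194, and 15 of the 16 B arrays lay above every young array. The difference was log2 0.74 ± 0.18 (SE), adjusted p = 0.038, and 0.73 without array 39 (adjusted p = 0.0673). The 2 dimmer probe sets of this gene were lower in B, at -0.35 and -0.20, and did not pass. Ppp3ca, the catalytic subunit of calcineurin, was at 0.60 with all arrays (adjusted p = 0.074) and passed at 0.77 without array 39 (adjusted p = 0.0371). Among 11 voltage-gated calcium channel genes none passed, and the median was 0.01.

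Neurod2, a transcription factor of pyramidal neurons, ran from 416 to 1724 in B, with a median of 946, against 266 to 836 in the young arrays, with a median of 480.4, and 4 young arrays lay within the range of B. Its difference was log2 0.95 ± 0.22 (SE), adjusted p = 0.0352 (0.97 and adjusted p = 0.0574 without array 39), and it was the 1 of 14 tested CA1 and pyramidal neuron markers that rose. Those markers had a median of 0.24, which was 0.09 without array 39, and their summed signal ran from 50140 to 85387 in B and 45310 to 62801 in the other 5 young arrays, with 35893 in array 39. The summed level of neuronal markers was thus higher in some B arrays than in any young array, and its part in the rises was not tested. Eef1a2, the translation elongation factor of neurons and muscle, ran from 842 to 3929.7 in B, with a median of 1354, against 287 to 1287 in the young arrays, with a median of 608. Its lowest value was again that of array 39, and the difference of log2 1.22 ± 0.28 (SE), adjusted p = 0.0308, became 1.00 without that array (adjusted p = 0.0755).

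Selenow, which codes for the small redox protein selenoprotein W, ran from 1124 to 2877 in B, with a median of 1922, against 248 to 1705 in the young arrays, with a median of 885. The young values fell into 3 low ones (animals 2, 3 and 38, at 247.6 to 482.6) and 3 within the range of B (animals 37, 39 and 40). Its difference was log2 1.34 ± 0.29 (SE), adjusted p = 0.0223, and grew to 1.51 without array 39 (adjusted p = 0.0371). Of 33 antioxidant and glutathione genes Selenow was the 1 called, 15 were higher and 18 lower, and catalase (Cat) was at -0.9998 (adjusted p = 0.0684). A dimmer Cat probe set gave -0.47 (adjusted p = 0.303). Uchl1, a ubiquitin hydrolase abundant in neurons, ran from 4282 to 15089 in B, with a median of 8284, against 1144 to 7894 in the young arrays, with a median of 4509, with array 39 the lowest young array by a wide margin. It differed by log2 1.05 ± 0.26 (SE), adjusted p = 0.0421, and by 0.70 without array 39, where it did not pass (adjusted p = 0.0928). A further Uchl1 probe set passed with all arrays at 1.09 (adjusted p = 0.0176) and without array 39 at 1.07 (adjusted p = 0.0394).

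Trim3 and Zswim8, both components of ubiquitin ligases, passed without array 39 as well, but not with the animal number range as a block (adjusted p = 0.0723 and 0.0539). Trim3 was 0.77 ± 0.16 (SE, adjusted p = 0.0196) and 0.72 without that array (adjusted p = 0.0404), and Zswim8 was 0.95 ± 0.20 (SE, adjusted p = 0.0196) and 0.99 (adjusted p = 0.0371). A further 9 genes rose. Npepps, a cytosolic aminopeptidase, was at 0.92 (0.65 without array 39), and Atp9a, a phospholipid flippase, at 1.01 (0.91). Apbb1, the amyloid precursor protein-binding protein Fe65, was at 0.89 (0.74), and Aplp2, a relative of that precursor, at 0.68 (0.50). Abi2, a regulator of actin, was at 0.89 (0.79), and Map1a, a microtubule-associated protein, at 0.86 (0.57). Ptprn, a protein of dense-core vesicles, was at 0.78 (0.58), Mboat7, an acyltransferase of phosphatidylinositol, at 0.79 (0.57) and Pkm, pyruvate kinase, at 0.73 (0.50). Array 39 was the lowest young array for Npepps, Apbb1, Atp9a, Aplp2, Abi2, Map1a, Ptprn, Mboat7 and Pkm. Without it all 9 stayed higher in B and none passed, with adjusted p from 0.0673 to 0.0995.

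The remaining rises were of genes with roles in immunity and lysosomes. B2m, the light chain of MHC class I, ran from 1692 to 4508 in B, with a median of 3543, against 1426 to 2557 in the young arrays, with a median of 2049, 14 of the 16 B arrays lying above all young arrays. The difference was log2 0.76 ± 0.18 (SE), adjusted p = 0.0366, and 0.74 without array 39 (adjusted p = 0.0673). It was the 1 of 22 MHC and interferon genes to rise, and 11 of the 22 were higher and 11 lower in B. Tap1 and Tap2, which load peptides onto MHC class I, were at -0.72 (adjusted p = 0.0782) and -0.71 (adjusted p = 0.0675). Ctsd, the lysosomal protease cathepsin D, ran from 863 to 1424 in B, with a median of 1108, against 282 to 1195 in the young arrays, with a median of 639, and differed by log2 0.79 ± 0.20 (SE), adjusted p = 0.0498. Of the 16 B arrays 6 lay above the highest young array, and without array 39 the difference was 0.70 (adjusted p = 0.0979).

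The largest fall that held without array 39 was that of Crhbp, whose product binds and sequesters corticotropin-releasing hormone. Its signals ran from 88.8 to 358 in B, with a median of 180.2, against 306 to 502 in the young arrays, with a median of 419, and 15 of the 16 B arrays lay below the lowest young array. The difference was log2 -1.08 ± 0.22 (SE), adjusted p = 0.0176, a 2.11-fold lower level, and -1.05 without array 39 (adjusted p = 0.0371). Fkbp3, a nuclear FK506-binding protein, ran from 196 to 479.7 in B, with a median of 283, against 436 to 723 in the young arrays, with a median of 573. With 14 of 16 B arrays below every young array, the difference was log2 -0.88 ± 0.19 (SE), adjusted p = 0.0232, and -0.94 without array 39 (adjusted p = 0.0371). Dnajc1, a chaperone partner at the endoplasmic reticulum, had the largest fall at 1 probe set for each gene, log2 -1.22 ± 0.27 (SE), adjusted p = 0.0264. Its signals ran from 56.6 to 166 in B, with a median of 100.3, against 113 to 820.5 in the young arrays, with a median of 226, and the highest of them was that of array 39, without which the difference was -0.89 (adjusted p = 0.0673).

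The other falls were those of Glycam1, a mucin-like ligand of L-selectin (-1.10, adjusted p = 0.0436), Marchf8, a membrane-bound ubiquitin ligase (-1.05, adjusted p = 0.025), and Arl1, a small GTPase of the Golgi (-0.62, adjusted p = 0.039). Glycam1 was dim in B, with a median signal of 54.2. Without array 39 they were at -0.92, -1.01 and -0.60 (adjusted p = 0.0912, 0.0558 and 0.0673). Among probe sets that do not stand for their gene, Mog, a protein of the myelin surface, fell by 1.45 on the log2 scale (adjusted p = 0.0352; -1.13 and 0.0912 without array 39), and its brighter probe set gave -0.57 (adjusted p = 0.16). Pfkm, muscle-type phosphofructokinase, gave -1.11 (adjusted p = 0.0305; -0.85 and 0.0673 without array 39) on the called probe set and 0.60 (adjusted p = 0.121) on the brighter one, that is, opposite directions.

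Where a gene called on its brightest probe set had further tested probe sets, 14 of the 16 moved the same way as the called one. Their median was 0.57 in that direction, and 2 passed (those of Prkce and Uchl1 above). The 16 belong to 11 genes and were measured on the arrays that chose the calls, so the shared direction is a description. The same share over all genes was not computed. Called upward on a dimmer probe set but not on the brightest one were also Thy1, a neuronal surface glycoprotein, at 1.33 against 0.15, Ckb, brain creatine kinase, at 1.45 against 0.73, and Glg1, a Golgi glycoprotein, at 1.31 against 0.02. The largest called rise of all, Dkc1 of the pseudouridine synthase complex, at 1.70 (adjusted p = 0.0232), was likewise a dim probe set, with a young range of 29.7 to 521. These 4 probe sets passed without array 39 as well, at 1.28 for Thy1, 1.19 for Ckb, 0.98 for Glg1 and 1.79 for Dkc1. The brightest Dkc1 probe set gave 0.53 with all arrays and was not called. Capns1, the small calpain subunit, was called on 2 such probe sets. One gave 1.11 and passed without array 39 at 1.07 (adjusted p = 0.0371). The other gave 1.31 and fell short without that array at 0.75 (adjusted p = 0.0539). The brightest Capns1 probe set gave 0.44 and was not called. Cx3cl1, the neuronal chemokine fractalkine, was at 0.93, and at 0.58 without array 39, where it did not pass (adjusted p = 0.0673). Its brightest probe set gave -0.26, the opposite direction, and a further probe set gave 0.87 (adjusted p = 0.0902). Further calls on a dimmer probe set that did not pass without array 39 were those of Gnao1, Grina and Plec. Gnao1, a G protein subunit, was at 0.89 (0.88 without the array, adjusted p = 0.0673) and Grina at 1.08 (0.91, adjusted p = 0.104). The cytolinker Plec was at -0.99 (-0.80, adjusted p = 0.0596). The brightest probe sets gave 0.64 for Gnao1 and 0.45 for Grina, but 0.15 for Plec, the opposite direction. The 5 called probe sets without a single gene symbol comprised 3 that rose and 2 that fell.

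Glial and vascular lists held few called genes. Of 19 complement and microglial genes, 1 rose (Ctsd), 12 were higher and 7 lower, and the median was 0.16 (0.20 without array 39). C1qb, a chain of the complement initiator C1q, was at 0.79 (adjusted p = 0.117), and P2ry12, a receptor of resting microglia, at 0.85 (adjusted p = 0.0959). None of 28 astrocyte markers passed, and their median of 0.15 was 0.00 without array 39. Of 19 oligodendrocyte and myelin genes none passed with all arrays and 17 were lower in B with a median of -0.22. Without array 39 all 19 were lower with a median of -0.38, and Cnp, a myelin enzyme, passed at -0.72 (adjusted p = 0.0371), having been at -0.53 with all arrays. After median centring 14 of the 19 were lower with a median of -0.11. The summed myelin signal ran from 15873 to 32851 in B, was 17208 in array 39 and ran from 22787 to 40452 in the other 5 young arrays. Endothelial and mural genes were 18 of 25 lower with a median of -0.29, which was -0.12 without array 39, and choroid plexus genes were 8 of 8 lower with a median of -0.33, which was -0.03 without that array.

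Immediate early genes, which neurons switch on with activity, showed no call among 33 tested, with 21 lower in B and a median of -0.08 that turned to 0.03 after median centring. Egr2 was at -0.99 (adjusted p = 0.118), Dusp1 at -1.12 (adjusted p = 0.119), Fos at -0.38 and Arc at -0.31. Animals had been killed a day after the last trial. Oxidative phosphorylation genes were lower in B in 40 of 53 cases with a median of -0.15 (-0.18 without array 39, -0.04 after median centring), and none passed with all arrays. Ndufb6, a subunit of complex I, was at -0.64 (adjusted p = 0.0816). Heat shock and chaperone genes were 24 of 30 lower with a median of -0.09, but 18 of 30 were higher after median centring. Lysosomal and autophagy genes were 18 of 27 higher with a median of 0.16, 1 of them called (Ctsd), and interneuron markers 11 of 15 lower with a median of -0.25 and none called. Pkm was the 1 of 25 glycolysis genes to pass, Map1a the 1 of 31 cytoskeletal and axon growth genes, Uchl1 the 1 of 25 proteasome and ubiquitin genes, and Crhbp the 1 of 12 genes of the corticosteroid system. None of 37 cytosolic ribosomal protein genes passed, with a median of 0.04. In the whole set of 3233 genes 1431 were higher and 1802 lower.

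**Figure D3:**
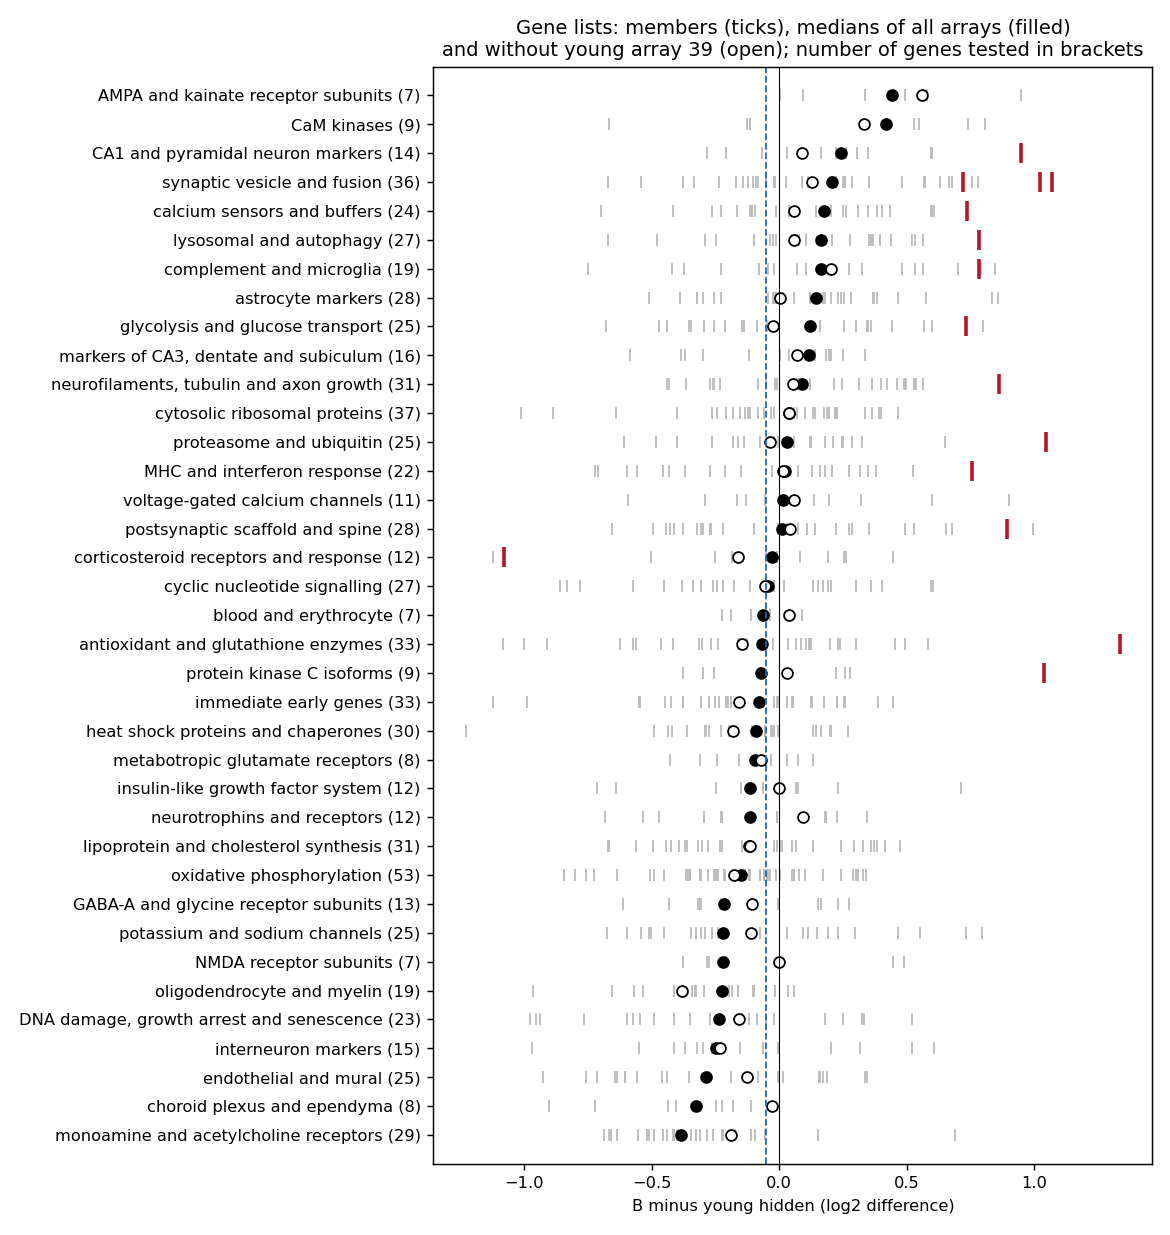
Log2 difference between B and young hidden platform rats (horizontal axis) for the members of 37 gene lists (rows, number of genes tested in brackets; some lists hold related genes beside those in their name). Grey ticks are genes that did not pass, red ticks genes that passed, filled circles the list medians with all 22 arrays, open circles those without young array 39, and the dashed line the median of all genes at -0.05; the choroid plexus median moves from -0.33 to -0.03 without that array.

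The same ages were also compared in rats that swam with no platform, 8 aged and 6 young yoked rats. Their differences share no array with the comparison above. Their p-values are not independent of it, because the hidden platform arrays were in the same fit and entered its estimate of variance. In the yoked comparison 92 of 5244 probe sets passed (1.75%), 47 upward (0.896%) and 45 downward (0.858%). Without young hidden platform array 39, 144 passed, and without aged yoked array 63, 266 passed. After all arrays of low correlation were left out, these arrays among them, 375 passed (7.15%), 220 upward (4.2%) and 155 downward (2.96%). Of the 53 probe sets called between B and young hidden rats, 45 had the same direction in the yoked rats, 35 of the 42 that rose and 10 of the 11 that fell, beside 47.998% of all probe sets. The medians of the risen were 0.95 in hidden platform and 0.49 in yoked rats, and those of the fallen -1.05 and -0.29. Because the 53 were selected in the hidden platform rats, larger sizes there follow from the selection. Passing in both were 4 probe sets, 7.55% of the hidden platform calls and 4.35% of the yoked calls: Zswim8 (1.62 in yoked rats, adjusted p = 0.0194), Atp9a (1.32, adjusted p = 0.046), Glg1 (1.42, adjusted p = 0.0296) and Fkbp3 (-1.12, adjusted p = 0.0194), each in the same direction. Syp was at 0.58 ± 0.29 (SE) and Crhbp at -0.29 ± 0.28 in the yoked rats, where neither passed (adjusted p = 0.318 and 0.661).

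The difference between the age differences was tested in 1 fit of the 36 hidden B, hidden young and yoked arrays, and 4 probe sets passed (0.0763%). Synj1 was 1.07 in hidden platform and -0.63 in yoked rats, a difference of 1.70 ± 0.33 (SE, adjusted p = 0.0382). Mog, on the dimmer probe set, was -1.45 and 0.94, a difference of -2.39 ± 0.50 (adjusted p = 0.0431). Jun, a component of the AP-1 transcription factor, was -0.81 and 1.13 on a probe set that does not stand for the gene, a difference of -1.94 ± 0.42 (adjusted p = 0.0431). The other Jun probe sets, of which the first is the brightest, gave differences of 0.40 (adjusted p = 0.697) and -0.45 (adjusted p = 0.722). Lysmd4 was 0.44 and -1.21, a difference of 1.64 ± 0.33 (adjusted p = 0.0382). With arrays of low correlation left out none passed by limma, with 572 probe sets under an unadjusted p of 0.05. List medians stood on opposite sides of 0 for myelin (-0.22 in hidden platform, 0.19 in yoked rats), for monoamine and acetylcholine receptors (-0.39 and 0.18) and for endothelial genes (-0.29 and 0.13), and no test of those differences was made. Oxidative phosphorylation genes had medians below 0 in both (-0.15 and -0.36).

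**Figure D4:**
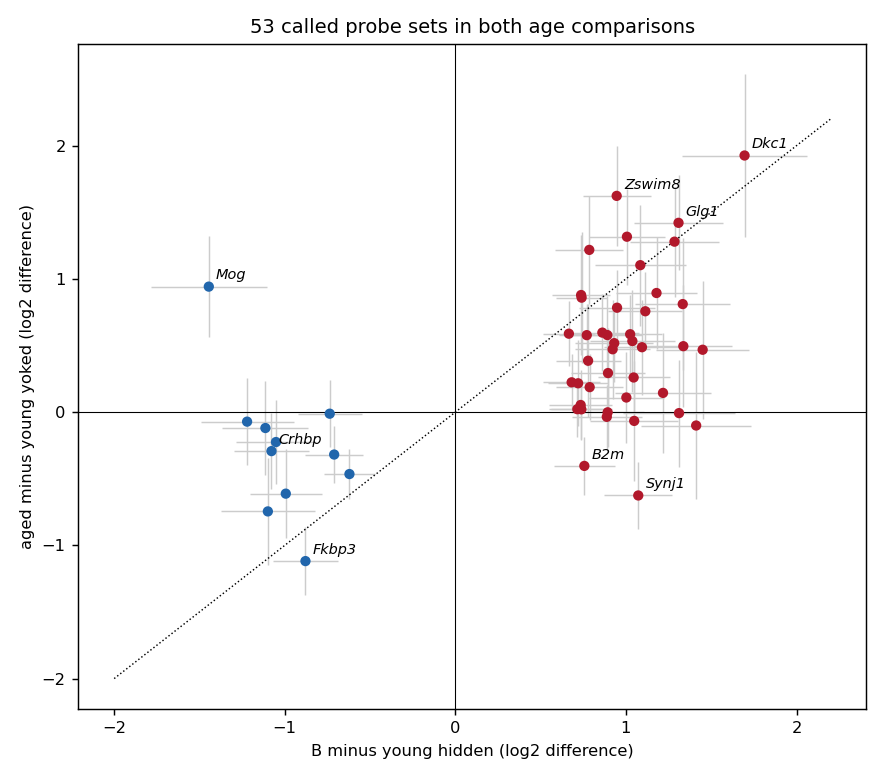
Log2 age difference of the 53 probe sets called between B and young hidden platform rats (horizontal axis) and their age difference in yoked rats (vertical axis), with standard errors as grey lines and a dotted line of equal values. Red points rose and blue points fell in the hidden platform comparison; Mog and Synj1 lie on opposite sides of 0 in the 2 comparisons, and both passed the test of the difference.

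The 2 further aged hidden platform groups were set against the same 6 young arrays, so that the 3 age differences share their controls and are given side by side only. In a fit of the 45 hidden platform arrays, 12 probe sets passed for B (0.229%), none for U by limma (347 under an unadjusted p of 0.05) and 3 for I (0.0572%). The 42 probe sets that rose in B had medians of 0.95 in B, 0.56 in U and 0.17 in I, and the 11 that fell had medians of -1.05, -0.53 and -0.47. Arrays that stand apart were also present in these groups, that of animal 81 in U (median Spearman correlation 0.785) and those of animals 83 and 8 in I (0.223 and 0.445). Without these and array 39, the medians of the risen probe sets were 0.46 in the 12 U arrays left and 0.27 in the 8 I arrays left, and those of the fallen -0.49 and -0.39. Synj1 was 1.07 ± 0.31 (SE) in B, 0.54 ± 0.32 in U and -0.11 ± 0.34 in I. Syp was 1.02, 0.58 and 0.51 in that order, and Nrxn3 0.89, 0.39 and -0.02. Crhbp was -1.08, -0.45 and -0.07. Without the arrays that stand apart, U and I were at 0.32 and 0.17 for Synj1, 0.57 and 0.74 for Syp, 0.38 and 0.16 for Nrxn3, and -0.53 and -0.26 for Crhbp. Because the members were selected for their difference in B, larger values in B than in the other groups follow from the selection, and no test between the aged groups was made.

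**Figure D5:**
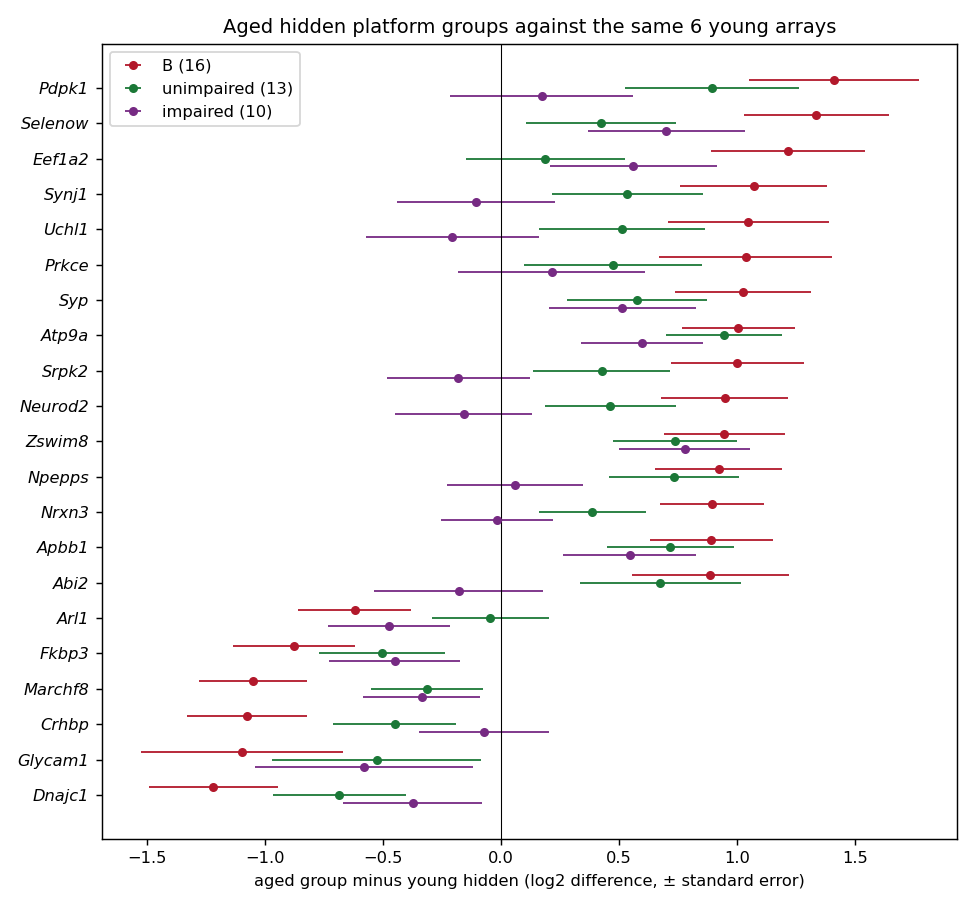
Log2 difference from the 6 young hidden platform arrays (horizontal axis) for the 15 largest rises and the 6 falls called in B, in B (red), unimpaired (green) and impaired (purple) aged rats, with standard errors. Arrays that stand apart are included, and the genes were selected on B; Synj1 is 1.07 in B, 0.54 in unimpaired and -0.11 in impaired rats.

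The animal numbers fall into ranges that the labels do not call processing groups, and B and young rats share 2 of them. Within the range 1-25 (8 B and 2 young rats) all 53 probe sets had the direction found in all 22 arrays, with a median size of 1.02 in that direction. In the range 26-50 (3 B and 4 young rats) all 53 did as well, with a median of 0.96, and 0.80 without array 39. These arrays also chose the 53, so the shared direction is a description. The 5 B rats of the range 76-100 had no young rat beside them. In the order in which the series lists its arrays, the B arrays of animals 10 and 82 stand among the young arrays. All other B arrays follow the last young array, so that this order is largely confounded with age. Its part in the differences was not tested. With the range as a block 20 probe sets passed, 18 of them among the 53. Of the 32 called genes 6 passed with the block (Synj1, Syp, Nrxn3, Selenow, B2m and Crhbp). The other 26 did not, among them Ptk2b (adjusted p = 0.0583), Pdpk1 (0.0875), Fkbp3 (0.0875) and Dnm1 (0.0939).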

How the data were processed

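The authors deposited 1 linear signal intensity per probe set and array, computed by MAS5 according to the submitters' processing notes; its version is not given in the sources used here. Trimmed mean signals lay between 500.1 and 501.0 on all 79 arrays. After removal of 59 control probe sets, 15 was added to each deposited signal intensity, log2 was taken, and the dimmest 40% of probe sets, by mean over the 79 arrays, were left out, leaving 5244, of which 4284 carried 1 gene symbol (3233 genes). Symbols came from the platform annotation, updated through RefSeq genes (6994 matched). Fold changes are on the log2(signal + 15) scale, which understates changes of dim probe sets.

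Differences were tested with limma 3.58.1 in R 4.3.3 (lmFit, eBayes with trend, two-sided), with Benjamini-Hochberg adjustment over the 5244 and a threshold of 0.05. B and young arrays were fitted alone (22 arrays); yoked differences, and their difference from the hidden platform one, in a fit of 36; the 3 aged hidden platform groups in a fit of 45. Each array is 1 animal, and the number of arrays limits the precision. A gene is represented by its probe set of highest mean signal. Genes named were the 15 largest rises and 15 largest falls called, the 4 of smallest p in each list, the 5 of smallest p in the yoked comparison and in the difference of age differences, and at most 2 rises and 2 falls without a symbol; the other genes named were chosen after their values were seen. The comparison and the gene lists were chosen with earlier results of these data known. On simulated data for B against young arrays, with 5244 probe sets, 38% of changes of 1 on the log2 scale were recovered. Of changes of 0.5, 4% were recovered, with 0 false calls among 5044 unchanged. The share of false calls among the 53 probe sets called on the measured arrays was not tested.

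Alternatives covered the pseudocount, the filter, quantile normalization and median centring, the variance model, array weights, the 3′ to 5′ ratio as covariate, animal number range as block, other sets of arrays and each array left out in turn. The alternatives without arrays of low correlation (median Spearman under 0.85) that were applied to the gene lists, to the U and I groups, or joined with the range block were added after the data were seen.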

Additional observations from a re-analysis of the deposited data

Results flagged for a closer look

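In groups of this size a value far from the others is expected by chance in about 1 in 20 groups, and 9 of 37 group and measure combinations had one. The 9 concern the 6 young hidden platform arrays and are no comparison with the B arrays. Their genes were called on these same arrays, so the rate of 1 in 20 is no yardstick for them. Each value below is the gap of that array to its nearest neighbour as a share of the group's range. The young array of animal 39 stood apart in its median Spearman correlation with other arrays (0.940), in how far probe sets for 1 gene disagreed (0.895) and in the log2 level of the spiked-in controls (0.691). The same array was the lowest young array for Mboat7 (0.807), Map1a (0.676), Pdpk1 (0.658), Aplp2 (0.640) and Uchl1 (0.628). The young array of animal 37 was the highest for Atp2b3 (0.627). Without array 39, Pdpk1 alone of these genes kept an adjusted p under 0.05.

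The age difference of hidden platform rats differed from that of yoked rats, by limma's test of the difference, for Mog on its dimmer probe set (-2.39 on the log2 scale), Jun on a probe set that is not its brightest (-1.94), Synj1 (1.70) and Lysmd4 (1.64). Jun and Lysmd4 passed in the yoked rats (1.13, adjusted p = 0.0464, and -1.21, adjusted p = 0.011) and not in the hidden platform rats, Synj1 and Mog the other way round. No probe set passed this test without arrays of low correlation, where 572 had an unadjusted p under 0.05.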

How the results depend on the processing

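The 53 called probe sets became 85 after quantile normalization, 580 with array weights, 25 with a robust variance model without trend, 1 with the 3′ to 5′ ratio as covariate, 20 with the range block, 25 without the array of low correlation and 20 with both of the last, 12 in the fit of 45 arrays and 0 in the fit of all 79 (limma, 424 at an unadjusted p under 0.05). Leaving out single arrays gave 1 to 380. Of the calls 42 were rises and 11 falls, but array weights gave 239 rises and 341 falls, and leaving out young animal 37 gave 187 and 193; after quantile normalization they were 59 and 26, and after median centring 68 and 9. The 92 yoked calls became 50 without the filter, 53 after quantile normalization, 207 with array weights, 179 with the covariate, 28 with the block, 5 in the fit of all 79, 375 without arrays of low correlation and 15 to 331 with single arrays left out. The 4 calls of the difference of age differences became 0 without the filter, after quantile normalization, in the fit of all 79 and without arrays of low correlation, 1 with the block, 8 with the covariate, 11 after median centring and 0 to 15 with single arrays left out. The cause of these moves was not tested. Median centring moved the median of all probe sets from -0.07 to 0.04. The 32 called genes, which these arrays also chose, kept their direction in each of these settings. Only Atp2b3 reversed, on its other probe sets (-0.35 and -0.20). No paired analysis was possible because animal numbers are not shared between groups.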
